A study of Homo sapiens with 4 samples.

Results

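These results concern 7 genes, RAP1GAP2, MAF, LARP6, PTGES, MYO5B, NECTIN1 and KCNG4, whose signals were higher in a Jurkat line with a short hairpin RNA against IKKε than in its control line, both at rest and after stimulation. They were chosen for that difference from these same arrays. All probe sets whose single gene symbol was one of the 7 were taken, which gave 20 probe sets of 41091 with a single symbol, and 7 genes of 13717 past the filter on low signals. Jurkat is an established human T cell leukaemia line. The kinase IKKε, the product of IKBKE, is a relative of TBK1 with roles in NF-κB and interferon pathways.

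Each group was 1 array, hybridised with biotin-labelled cRNA. The 4 groups were the shIKKE line with 10 ng/ml PMA and 0.5 uM ionomycin, the shIKKE line with solvent, the control line with PMA and ionomycin, and the control line with solvent, each treated for 3 h. PMA switches on protein kinase C, ionomycin raises intracellular calcium, and the pair mimics T cell receptor signals. The control construct is a vector in the sample titles and a control hairpin in the series text. The labels do not say whether either line was a clone or a pool, and they name a single hairpin target without its sequence. Because each group is 1 array, a difference between the lines cannot be told apart from a difference between these 4 cultures or hybridisations, and no difference between single arrays has a test here. In a bulk culture, more cells with a transcript and more transcript per cell cannot be told apart either.

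The genes have different known functions. Rap1, the small GTPase that RAP1GAP2 switches off, controls integrin adhesion of lymphocytes. MAF is a basic leucine zipper transcription factor that T helper cells use to express interleukin-4 and interleukin-21. The others act in collagen mRNA binding (LARP6), prostaglandin E2 synthesis (PTGES), transport of recycling endosomes (MYO5B), cell adhesion (NECTIN1) and modulation of voltage-gated potassium channels (KCNG4).

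The targeted gene was read by a pair of IKBKE probe sets that did not run alike. The first read 180.2 in the shIKKE line and 339.9 in the control line with solvent, and with stimulation 248 in the shIKKE line and 520.2 in the control line. The second read 287 in the shIKKE line and 218 in the control line with solvent. With stimulation its signal was 279.8 in the shIKKE line and 311 in the control line, so IKBKE was lower in both treatments by the first probe set alone. Of 13 T cell markers 12 had a probe set, and all 12 were above the filter used below on all 4 arrays, with a summed signal of 92826 to 106838. Single T cell markers differed between the lines in both directions. CD2 read 500.3 in the shIKKE line and 1976 in the control line with solvent, and with stimulation 353 and 760 in that order. CD7 read 1025 in the shIKKE line and 682 in the control line with solvent, and with stimulation 903 and 657. The sums of 5 B cell, 5 myeloid, 5 epithelial, 4 natural killer and 4 fibroblast markers with a probe set lay between 65.3 and 604, and in each of these lists at most 1 marker was above the filter on all 4 arrays. The median signal of an array was 49.7 in the shIKKE line and 48.8 in the control line with solvent, and with stimulation 69.1 in the shIKKE line and 59.8 in the control line. The 5′ to 3′ ratio of the ACTB control probe sets lay between 0.244 and 0.401 and did not separate the lines. The part of these array properties in the results below was not tested.

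Values are MAS5 signals on a linear scale, 1 per probe set and array. For log2 differences 14.1 was added to each signal, so that changes of dim probe sets are understated. A gene's main probe set is the brightest of those that reached a signal of 56.4 on at least 1 array. All 7 genes have such a probe set, but 5 reached that limit through the shIKKE arrays alone, so they could pass the filter because they were higher there. The other 2, RAP1GAP2 and NECTIN1, reached it on the control line's solvent array too. By main probe set, 13 of the 14 signals on shIKKE arrays lay above the median of all probe sets on their array, and 11 of the 14 signals on control arrays lay below it. All 7 genes lie below the median level of the 13717 genes.

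**Figure D1:**
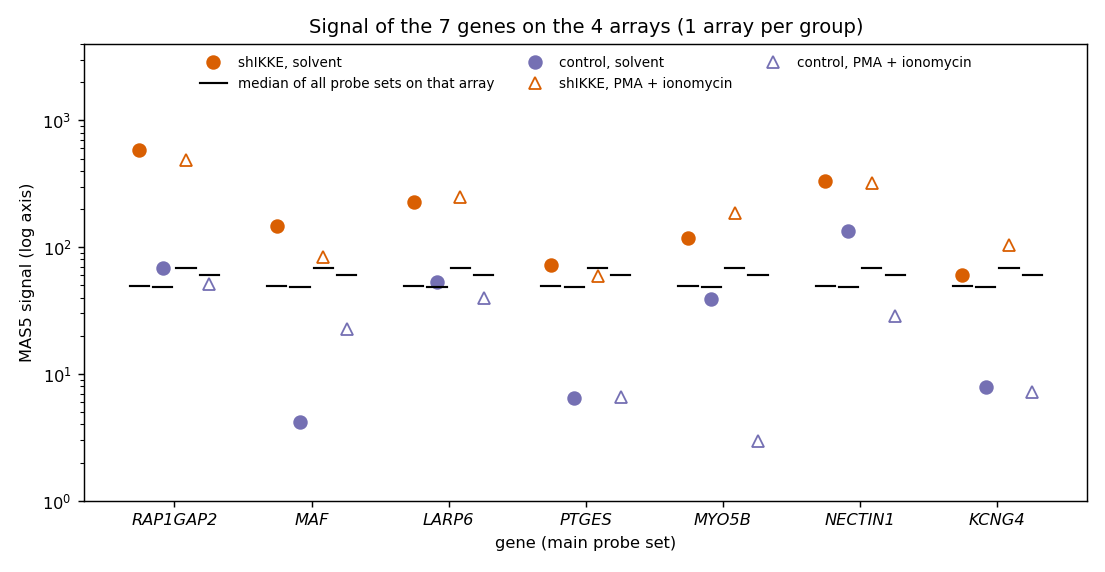
MAS5 signal (log axis) of the main probe set of each gene on the 4 arrays, 1 point per array, with black bars at the median signal of all probe sets on that array. RAP1GAP2 has the highest points, 583 and 488 in the shIKKE line, and for each gene both shIKKE points lie above both control points.

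RAP1GAP2, a GTPase-activating protein for Rap1, had the highest signals of the group in the shIKKE line and the most even difference between the lines. It read 583 in the shIKKE line and 68.6 in the control line with solvent, and with stimulation 488 in the shIKKE line and 51.4 in the control line. The log2 differences were 2.85 and 2.94. In the shIKKE line these signals lay at percentiles 79.6 and 77.3 of all probe sets on the array, so RAP1GAP2 was the 1 gene of the 7 in the upper quartile on both shIKKE arrays. It has a single probe set, so no second reading of the gene exists on this array.

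MAF differed most with solvent. Its main probe set read 148 in the shIKKE line and 4.17 in the control line with solvent (log2 3.15), and with stimulation 83.2 in the shIKKE line and 22.7 in the control line (log2 1.40). The control line's solvent signal lay at percentile 11.0 of its array, near the floor of the measurement, where MAS5 signals are widely spread. The promoters of MAF and, further on, of PTGES, MYO5B and KCNG4 are shown because these 4 genes have a single start window in the RefSeq promoter table. The MAF window is chr16:79600688-79600987 on the minus strand of GRCh38.p14, from 250 bases before the start to 50 after it, 5′ to 3′ along the gene. Capitals mark a TATA box (TATAAA) at -30 to -25 and, on the opposite strand, a MAF recognition core (TGCTGA) at -22 to -17.
MAF: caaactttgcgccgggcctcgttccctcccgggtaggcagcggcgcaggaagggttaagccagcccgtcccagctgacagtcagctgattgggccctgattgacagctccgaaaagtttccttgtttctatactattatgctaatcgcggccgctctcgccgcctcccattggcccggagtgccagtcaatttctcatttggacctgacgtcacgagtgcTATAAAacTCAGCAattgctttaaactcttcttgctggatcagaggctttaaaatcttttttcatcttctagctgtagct

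Such matches are letters in a window and say nothing of binding. A TATAAA on either strand is in 11.5% of the 35116 windows of the table, and a TGCTGA on either strand in 17.3%. Among the 11 windows of the 6 genes with an entry, 1 held TATAAA, that of MAF, and 2 held TGCTGA, those of MAF and of 1 of 5 RAP1GAP2 starts.

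LARP6, which binds a stem-loop of type I collagen mRNAs, read 226 in the shIKKE line and 53.1 in the control line with solvent, and with stimulation 248 in the shIKKE line and 40.1 in the control line. Both shIKKE signals were above both control signals, with log2 differences of 1.83 and 2.27. Its 2 start windows hold the GC box GGGCGG, and the second also holds the AP-1 motif TGACTCA on the opposite strand at 35 to 41 after the start. TGACTCA is in 4.95% of all windows and in 1 of the 11.

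PTGES encodes the inducible membrane-bound enzyme that makes prostaglandin E2 from the product of the cyclooxygenases. It read 71.8 in the shIKKE line and 6.49 in the control line with solvent (log2 2.06), and with stimulation 59.5 in the shIKKE line and 6.53 in the control line (log2 1.83). All 4 signals were low, and the shIKKE signal with stimulation was below the median of 69.1 on its array. The promoter window is chr9:129752993-129753292 on the minus strand of GRCh38.p14, and capitals mark GC boxes (GGGCGG) at -89 to -84 and -78 to -73.
PTGES: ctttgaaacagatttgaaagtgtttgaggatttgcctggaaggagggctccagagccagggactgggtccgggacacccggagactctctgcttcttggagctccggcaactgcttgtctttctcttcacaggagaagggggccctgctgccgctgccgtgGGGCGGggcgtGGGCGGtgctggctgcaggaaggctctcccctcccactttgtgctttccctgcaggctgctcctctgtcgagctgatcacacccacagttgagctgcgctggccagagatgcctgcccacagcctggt

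The GC box is common, in 45.0% of all windows and in 8 of the 11. The NF-κB consensus was searched because IKKε acts in that pathway. It is in 5.91% of all windows and was found in 0 of the 11, which says nothing of the factor beyond these letters in these windows.

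MYO5B, a class V myosin that moves Rab11-bearing recycling endosomes along actin, read 119 in the shIKKE line and 38.8 in the control line with solvent (log2 1.33). With stimulation it read 185 in the shIKKE line and 2.96 in the control line (log2 3.55). The larger of these differences rests on a control signal at percentile 5.74 of its array. In the promoter window, chr18:50195098-50195397 on the minus strand of GRCh38.p14, capitals mark a GC box at -114 to -109 and another, on the opposite strand, at -74 to -69.
MYO5B: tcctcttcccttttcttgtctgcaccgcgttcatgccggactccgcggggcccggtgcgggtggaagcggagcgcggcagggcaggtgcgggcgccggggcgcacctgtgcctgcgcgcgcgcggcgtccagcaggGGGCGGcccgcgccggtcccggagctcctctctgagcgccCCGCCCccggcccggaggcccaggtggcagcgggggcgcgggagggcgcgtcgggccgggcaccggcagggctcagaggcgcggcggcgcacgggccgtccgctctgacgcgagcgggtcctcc

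NECTIN1, an immunoglobulin-like adhesion molecule that binds afadin inside the cell, read 335 in the shIKKE line and 133 in the control line with solvent (log2 1.24). With stimulation it read 319.6 in the shIKKE line and 28.6 in the control line (log2 2.97). Its signals were almost equal on the shIKKE arrays and far apart on the control arrays.

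KCNG4 encodes a modifier subunit that carries no current alone and assembles with channels of the KCNB family. It read 59.9 in the shIKKE line and 7.95 in the control line with solvent (log2 1.75), and with stimulation 104 in the shIKKE line and 7.25 in the control line (log2 2.46). Both control signals lay low on their arrays, at percentiles 19.6 and 16.5, and no second probe set exists. Its window, chr16:84239963-84240262 on the minus strand of GRCh38.p14, held none of the 5 motifs searched and is printed without capitals.
KCNG4: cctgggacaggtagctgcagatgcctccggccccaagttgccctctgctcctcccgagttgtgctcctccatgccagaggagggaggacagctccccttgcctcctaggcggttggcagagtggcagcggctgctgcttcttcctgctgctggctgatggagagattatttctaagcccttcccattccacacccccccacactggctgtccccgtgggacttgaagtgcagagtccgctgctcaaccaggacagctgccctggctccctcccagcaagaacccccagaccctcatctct

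With the values in hand, the group can be placed among all genes as a description, since these differences chose it. The main probe sets had a median log2 difference of 1.83 with solvent (range 1.24 to 3.15) and 2.46 with stimulation (range 1.40 to 3.55), where the medians over all 13717 genes were -0.05 and 0.03. All 7 were at least 2-fold higher in both treatments, as were 103 of 13717 genes or 0.751% (4.34% with solvent and 5.99% with stimulation taken alone). Of the 103, 98 were genes below the median level, 1.43% of such genes, against 0.0729% of the genes above it. Ranked by the mean of both differences, all 7 were among the first 10 genes, with RAP1GAP2 first and PTGES at rank 10. Ranked by the smaller of both differences they spread out, from rank 1 (RAP1GAP2) through 5 (PTGES), 6 (LARP6) and 10 (KCNG4) to 29 (MAF), 37 (MYO5B) and 53 (NECTIN1). Just inside a 2-fold limit on the smaller difference lay ERICH6, EPHB4 and MYCN (log2 1.01 each), and just outside it SHROOM2, PLAC4 and EML1 (0.99 each).

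A second reading of the same gene existed for 5 of the 7, through 13 further probe sets, and few of these repeated the difference. Of the 13, 1 was higher by 2-fold or more in the shIKKE line in both treatments, 3 were higher in both by any amount, 4 were lower in both and 6 differed in direction between the treatments. Most were dim, with no signal above 113, and 1 of the 13 reached the limit of 56.4. Across all genes, of 124 further probe sets of the 49 genes that were at least 2-fold higher in both treatments and had several, 8 or 6.45% were so too.

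The probe set that repeated the difference belongs to MYO5B. It read 38.7 in the shIKKE line and 1.80 in the control line with solvent (log2 1.73), and with stimulation 34.6 in the shIKKE line and 1.30 in the control line (log2 1.66). It differed from the main MYO5B probe set in that the difference was as large with solvent as with stimulation. The third MYO5B probe set read 29.6 in the shIKKE line and 20.7 in the control line with solvent, and with stimulation 31.8 in the shIKKE line and 38.9 in the control line.

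MAF had the most probe sets, 6, and they covered both directions. Beside the main probe set, 1 was higher in the shIKKE line in both treatments, at 29.2 against 12.9 in the control line with solvent and 26.9 against 0.745 with stimulation (log2 0.68 and 1.47). Another read 20.7 in the shIKKE line and 41.2 in the control line with solvent, but 41.5 in the shIKKE line and 3.67 in the control line with stimulation. The remaining 3 had log2 differences of 0.42, 0.32 and -0.69 with solvent and of -0.01, -1.01 and -0.05 with stimulation. None of these 5 exceeded a signal of 41.5.

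For NECTIN1 the further probe set that passed the filter did not show the difference. It read 113 in the shIKKE line and 107 in the control line with solvent, and with stimulation 62.4 in the shIKKE line and 45.8 in the control line (log2 0.08 and 0.35). A dimmer one had log2 differences of -1.32 with solvent and 1.30 with stimulation, and the last was lower in the shIKKE line in both treatments (-0.72 and -0.92). The further LARP6 probe sets had log2 differences of -0.43 and -0.46 with solvent and 0.68 and -0.24 with stimulation. The second PTGES probe set read 32.0 in the shIKKE line and 49.3 in the control line with solvent, and with stimulation 47.1 in the shIKKE line and 50.5 in the control line (log2 -0.46 and -0.08). It was brighter than the main PTGES probe set in the control line and on average, but it stayed under the filter, so the choice of main probe set decides the direction for PTGES.

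**Figure D2:**
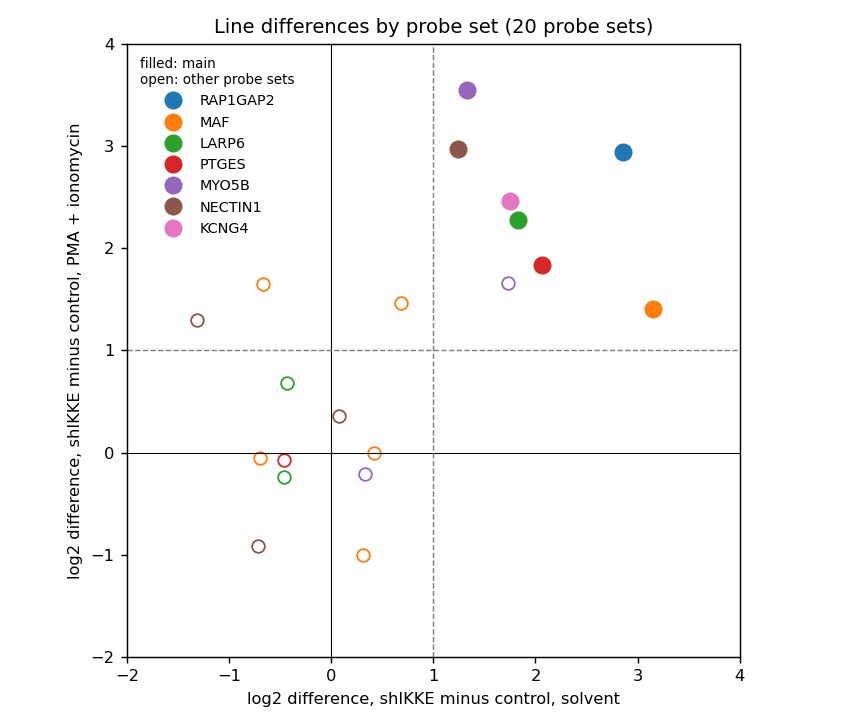
Log2 difference between the shIKKE and control lines (signal plus 14.1) with solvent (x axis) and with PMA and ionomycin (y axis) for all 20 probe sets, filled for the main probe set of a gene and open for its others; dashed lines mark 2-fold. The 7 filled points lie in the upper right corner by choice, and 1 of the 13 open points, of MYO5B, lies there with them.

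Stimulation was not used as such to choose the genes, but its differences share arrays with those between the lines. All 7 genes lie below the median level, while the shares of all genes cover every level. Counts beside these shares are therefore not read as a result about the genes. In the shIKKE line, 0 of the 7 main probe sets changed by 2-fold or more with PMA and ionomycin, where 13.0% of all genes did. RAP1GAP2 (log2 -0.25), PTGES (-0.22), NECTIN1 (-0.06) and LARP6 (0.13) lay near 0 there. KCNG4 (0.67) and MYO5B (0.58) were higher and MAF (-0.73) lower with stimulation, all within 2-fold on these single arrays.

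In the control line 3 main probe sets differed by 2-fold or more. MYO5B read 2.96 with stimulation and 38.8 with solvent (log2 -1.63), and NECTIN1 read 28.6 with stimulation and 133 with solvent (log2 -1.79). These are 2 of 7, where 6.44% of all genes were at least 2-fold lower. MAF read 22.7 with stimulation and 4.17 with solvent (log2 1.01), 1 of 7 where 7.57% of all genes were at least 2-fold higher. MAF fell below that limit with quantile normalization (0.94), cyclic loess (0.78) and a pseudocount of 50 (0.42). The MYO5B difference also came within 2-fold with a pseudocount of 50 (-0.745). Both control signals of MYO5B, and both of MAF, lay under the filter. For NECTIN1 the further probe set past the filter was lower with stimulation in the control line too, at 45.8 against 107 with solvent (log2 -1.01), and lower in the shIKKE line, at 62.4 against 113 (log2 -0.73). The dimmer NECTIN1 probe sets had control line differences of log2 -1.57 and -0.28. The further MYO5B probe sets had 0.61 and -0.05 there, so neither repeated the lower signal by 2-fold. Those of MAF had -1.64, 1.46, -0.86, -0.01 and -0.87, in both directions. The main probe sets of RAP1GAP2 (-0.34), LARP6 (-0.31), KCNG4 (-0.05) and PTGES (0.00) lay within 2-fold. The median of the 7 genes was -0.06 in the shIKKE line and -0.31 in the control line, where the medians over all genes were -0.01 and -0.07.

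Averaged over the lines, no gene of the 7 passed the test of stimulation. With limma's additive model fitted across 13717 genes, NECTIN1 had the smallest adjusted p of the 7, with a log2 difference of -0.93 ± 0.47 (SE, adjusted p = 0.457). That average came mostly from the control line (log2 -1.79), as the shIKKE line was near 0 (-0.06). The other 6 had adjusted p-values from 0.634 (RAP1GAP2, log2 -0.29 ± 0.25) to 0.919 (MAF, 0.14 ± 0.47) in limma's test. At an unadjusted p under 0.05 the count was also 0 of 7, against 13.8% of all genes, and at an adjusted p of at most 0.05 it was 0 of 7, against 0.00729% of all genes, which is 1 gene. A single residual degree of freedom remains, taken up by how the lines' responses differ, so these p-values do not show that the genes were unaffected.

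The gap between the lines therefore changed with stimulation by different amounts. The response of the shIKKE line minus that of the control line was log2 2.21 for MYO5B, 1.73 for NECTIN1 and -1.74 for MAF, that is 3 of 7 at 2-fold or more, where 16.0% of all genes were (2 of 7 with a pseudocount of 50). It was 0.72 for KCNG4, 0.44 for LARP6, 0.09 for RAP1GAP2 and -0.23 for PTGES. This measure is built from the same line differences that chose the genes, and the 16.0% covers bright and dim genes alike. All 7 genes lie below the median level, so nothing is read from the count of 3 of 7. By main probe set, RAP1GAP2 thus kept nearly the same distance between the lines in both treatments. MYO5B and NECTIN1 were further apart with stimulation and MAF was closer. For MYO5B and MAF this rests on control signals of 2.96 and 4.17, at percentiles 5.74 and 11.0 of their arrays. Further probe sets had differences of responses of -0.53 and -0.07 for MYO5B, and 2.31, -0.425, 0.78, -1.32 and 0.64 for MAF. For NECTIN1 they were 0.28, 2.62 and -0.20. None of these differences of responses has a test, with 1 array in each group.

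**Figure D3:**
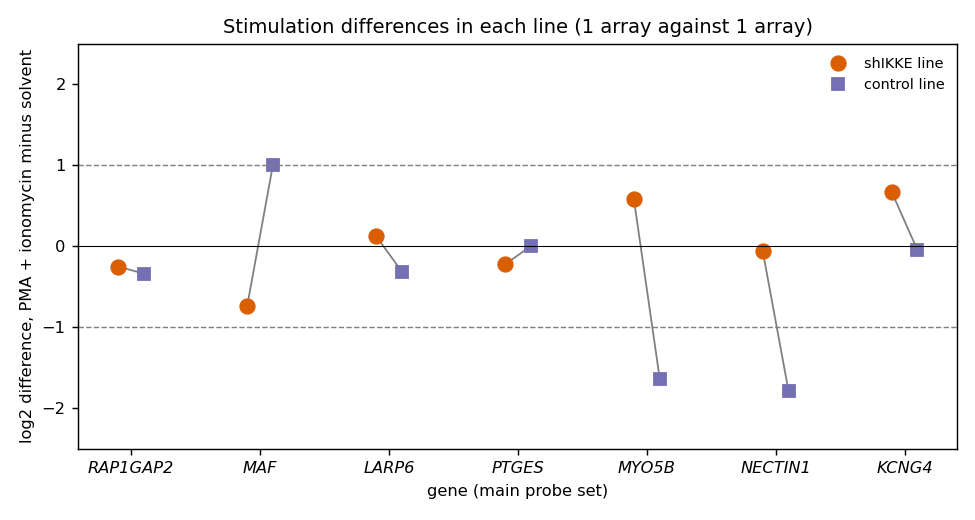
Log2 difference between PMA and ionomycin and solvent (signal plus 14.1) for the main probe set of each gene in the shIKKE line (circles) and the control line (squares), each from 1 array against 1 array; dashed lines mark 2-fold. No circle lies beyond 2-fold, and the squares of MYO5B (-1.63), NECTIN1 (-1.79) and MAF (1.01) do.

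Genes related to the 7 by family or role were counted for a similar difference between the lines. Of 98 genes in 8 lists drawn up around the members' roles, 71 had a probe set past the filter, of which 2 were higher in the shIKKE line by 2-fold or more in both treatments and 0 were lower. That is 2.82%, where the background is 0.751%, and no test was made. The count was 1 with a pseudocount of 50, with quantile normalization and with cyclic loess, where KCNA3 was lost. With the median of a gene's probe sets it was 2, RASGRP2 and KCNA3. Over all genes, 6.68% were lower by 2-fold or more with solvent and 2.37% with stimulation. The 2 genes were CCND2 and KCNA3.

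Of 16 measured regulators and effectors of Rap1, 1 was higher by 2-fold or more with solvent, 1 with stimulation and 0 in both. Over all genes the shares were 4.34%, 5.99% and 0.751%, so nothing is read from these counts. RASGRP2, an exchange factor that activates Rap1, read 1625 in the shIKKE line and 577 in the control line with solvent (log2 1.47), and with stimulation 1232 in the shIKKE line and 809 in the control line (log2 0.60). RAPGEF3, a cAMP-sensitive exchange factor, read 64.2 in the shIKKE line and 5.92 in the control line with stimulation (log2 1.97) but had a log2 difference of 0.41 with solvent. A second RAPGEF3 probe set did not repeat this, with log2 differences of 0.05 with solvent and -0.01 with stimulation. RAPGEF3 passed the filter through the shIKKE array with stimulation alone. RASSF5, a Rap1 effector in integrin activation, had log2 differences of -0.47 and -0.87, and by a dimmer probe set 0.48 and -2.90. Each of 3 dimmer RASGRP2 probe sets was higher in both treatments, with log2 differences of 1.48, 2.21 and 1.64 with solvent and 0.72, 1.37 and 0.88 with stimulation. The list's medians were -0.01 with solvent and 0.24 with stimulation.

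Of 5 measured MAF and BACH factors, 0 differed by 2-fold in both treatments. NRL, a large MAF protein best known from photoreceptors, had log2 differences of -0.04 with solvent and 2.40 with stimulation, and its second probe set 2.36 and -0.92. Among 5 measured genes described as MAF targets in myeloma or T cells, the cyclin gene CCND2 was higher in both treatments. It read 293 in the shIKKE line and 64.3 in the control line with solvent, and with stimulation 287 in the shIKKE line and 66.3 in the control line (log2 1.97 and 1.91). Of its 3 dimmer probe sets, 2 were higher in both, with log2 differences of 1.51 and 1.54 with solvent and 0.29 and 0.97 with stimulation, and the other had -0.03 and 1.25. The cytokine gene IL4 (log2 -1.65 and -0.43) was lower in both treatments, by under 2-fold with stimulation. A second, dimmer IL4 probe set was lower by 2-fold or more in both, with log2 differences of -2.10 and -1.92. The integrin gene ITGB7 (-2.18 and 0.44) and the chemokine receptor gene CCR1 (-1.06 and 0.49) were lower with solvent and not with stimulation. The kinase gene NUAK1 (0.24 and 1.39) was at least 2-fold higher with stimulation, but it passed the filter through the shIKKE array with stimulation alone. Of these 5 genes, 1 was therefore higher by 2-fold or more in both treatments, where 0.751% of all genes were. With solvent 3 of the 5 were lower by 2-fold or more, where 6.68% of all genes were. Nothing about MAF is read from these counts.

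The lists around the transport and adhesion genes had few members that differed by 2-fold, as had all genes, so nothing is read from their counts. Of 11 measured class V myosins and recycling endosome genes, 0 differed by 2-fold with solvent, and RAB11FIP5 was higher with stimulation (log2 1.22), while MYO5A had log2 differences of -0.38 and -0.83. Over all genes 5.99% were higher with stimulation. Of 8 measured nectins, nectin-like molecules and their receptors, 0 were higher by 2-fold. NECTIN3 read 142 in the shIKKE line and 314 in the control line with solvent (log2 -1.07), and CD96, a receptor that binds nectin-1, read 99.6 in the shIKKE line and 218 in the control line with stimulation (log2 -1.03). A dimmer CD96 probe set was lower with solvent in place of stimulation (log2 -1.91 and -0.27).

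By main probe set, all 8 measured LARP proteins and LARP6 partners lay within 2-fold in both treatments, among them LARP1 (log2 0.65 and 0.00) and the collagen gene COL1A1 (0.30 and 0.03). Of 4 dimmer COL1A1 probe sets, 3 were higher in both treatments, with log2 differences of 0.81, 0.89 and 1.41 with solvent and 1.85, 1.28 and 0.97 with stimulation, and the last had 0.17 and -0.41. Of 12 measured genes of prostanoid synthesis and reception, PTGDS was higher with solvent (log2 2.46, and -0.33 with stimulation) by its main probe set. Its dimmer probe sets disagreed, with log2 differences of 1.18 and -0.76 with solvent and -0.09 and 1.67 with stimulation. HPGD, which inactivates prostaglandins, was lower with solvent (log2 -1.16, and -0.67 with stimulation), and ABCC4, a transporter that exports prostaglandin E2, had log2 differences of 0.74 and 0.57. Of 6 measured potassium channel genes, KCNA3, the main voltage-gated channel of T cells, was higher in both treatments. It read 80.1 in the shIKKE line and 5.55 in the control line with solvent (log2 2.26), and with stimulation 36.2 in the shIKKE line and 8.18 in the control line (log2 1.18), and it passed the filter through the shIKKE solvent array alone. The modifier subunits, which like KCNG4 carry no current alone, went different ways by their main probe sets. KCNS1 had log2 differences of 2.09 with solvent and -0.19 with stimulation, KCNV1 0.28 and -1.89, and KCNS2 -0.82 and -1.21. Of 2 dimmer KCNS2 probe sets, 1 was higher in both treatments (0.23 and 0.53) and 1 lower (-1.32 and -0.37). KCNN4, a calcium-activated channel found in T cells, read 83.3 in the shIKKE line and 234 in the control line with solvent (log2 -1.35). With stimulation it read 131 in the shIKKE line and 268 in the control line (log2 -0.95). Of the 6 channel genes, 2 were higher and 1 lower by 2-fold or more with solvent, and 1 higher and 2 lower with stimulation. Over all genes 4.34% were higher and 6.68% lower with solvent, and 5.99% and 2.37% with stimulation. These lists are small, and nothing is read from their counts.

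Outside the group, the 6 genes whose pattern over the 4 arrays was nearest to the mean pattern of the 7 were H4C13, RBPMS-AS1, CCND2, CSTA, RHOBTB2 and PZP. All but CCND2 passed the filter through the shIKKE arrays alone, so they could pass it because they were higher there. Nearness is the root mean square difference of log2 values after centring each gene on its own mean, and it was 0.19 for H4C13 and 0.27 for PZP. Of the 7 genes themselves, LARP6 lay nearest to their mean, at 0.12, and MAF farthest, at 0.58. Each of the 7 is itself part of that mean. Ranked by nearness among all genes past the filter, LARP6, PTGES, KCNG4 and RAP1GAP2 were at 1, 5, 10 and 16. MYO5B, NECTIN1 and MAF were at 44, 48 and 101, so many other genes lay nearer than these. The histone gene H4C13 read 88.1 in the shIKKE line and 6.95 in the control line with solvent, and with stimulation 66.9 in the shIKKE line and 5.77 in the control line. CSTA, a cysteine protease inhibitor gene, read 93.4 in the shIKKE line and 25.5 in the control line with solvent, and with stimulation 96.0 in the shIKKE line and 12.0 in the control line. With 4 arrays many genes can have such a shape, and the likeness is a description.

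**Figure D4:**
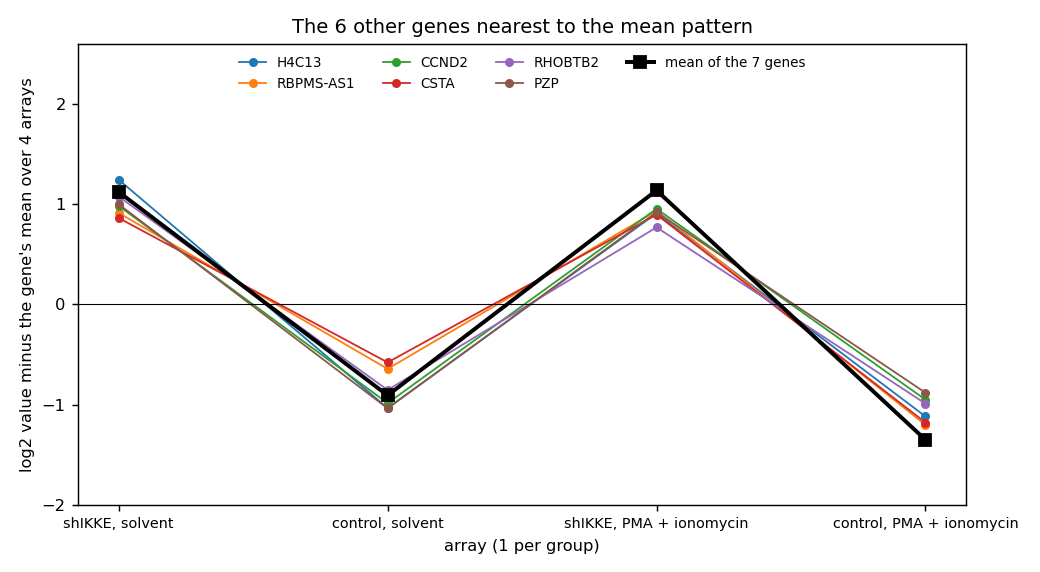
Log2 value (signal plus 14.1) minus the gene's own mean over the 4 arrays, for the mean of the 7 genes (black squares) and the 6 other genes nearest to it (coloured circles), 1 array per group. The black line reads 1.12 and 1.14 in the shIKKE line and -0.91 and -1.35 in the control line, and the 6 genes follow it with root mean square differences of 0.19 to 0.27.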

How the data were processed

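Total RNA of 4 Jurkat cultures was profiled on 4 arrays of 1 colour, 1 array for each group. The deposited values are intensities, 1 linear MAS5 signal per probe set and array. MAS5 is named in the submitters' processing notes, without its version or scaling target. Detection calls were not analysed. The trimmed mean (2% at each end) was 500.08 on each array, so the authors' arrays had been scaled to 1 target. The table had 0 columns left out. Precision is limited by the number of arrays.

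Probe sets were named from the platform annotation (41097 with a single symbol, 1801 with several, 11777 with none, before leaving out 62 array controls), checked by gene ID against RefSeq for GRCh38.p14, which matched 41043 and replaced 0 symbols. Values were log2(signal + 14.1), the pseudocount being the 25th percentile of all signals. A probe set was kept if any array reached 56.4, the median over all signals (26218 probe sets, 13717 genes), and the brightest kept probe set stood for its gene. Average stimulation was tested with limma 3.58.1 in R 4.3.3 (additive model of line and stimulation, two-sided, Benjamini-Hochberg over all genes, adjusted p at most 0.05). The code was checked on simulated arrays with independent noise and the same response in both lines. That check does not show that the model suits these arrays. Other steps used Python 3.11.15. Promoter windows are from RefSeq, GRCh38.p14. They held 6 of the 7 genes, and motifs were searched on both strands.

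The members, the lists and the rule for named genes were chosen with earlier results of these data known. Named were all members, list genes at least 2-fold different in both treatments plus up to 4 with the largest mean difference, the 6 genes nearest in pattern, and 3 genes on each side of the 2-fold limit. Alternatives were pseudocounts of 1 and 50, quantile normalization, cyclic loess, no filter, the median of a gene's probe sets, each probe set alone, and limma with a variance trend. No comparison of single arrays has a test.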

Additional observations from a re-analysis of the deposited data

Results flagged for a closer look

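For 5 of the 7 genes the stimulation difference had opposite signs in the lines, on 1 array per group, and the difference between the lines' responses was not tested. Over all genes 37.2% had opposite signs. With quantile normalization and with cyclic loess 3 of the 7 had them, LARP6 and PTGES no longer among them. The response of the shIKKE line minus that of the control line was log2 2.21 for MYO5B (0.58 in the shIKKE line and -1.63 in the control line) and -1.74 for MAF (-0.73 and 1.01 in that order). For KCNG4 it was 0.72, for LARP6 0.44 and for PTGES -0.23. In these last 3 both differences lay within 2-fold in each line, so the opposite signs are of small values.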

How the results depend on the processing

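All 7 genes stayed higher by 2-fold or more in the shIKKE line in both treatments with a pseudocount of 1, quantile normalization and cyclic loess; with no filter and with the median of probe sets, 1 gene each fell out (PTGES, and NECTIN1 at log2 0.66 with solvent). With a pseudocount of 50, 3 remained, RAP1GAP2 (log2 2.42 and 2.41), NECTIN1 (1.07 and 2.23) and LARP6 (1.42 and 1.73), and 1 gene, in place of 3, changed 2-fold with stimulation in the control line, while MAF's difference of responses fell just short of 2-fold (-0.99), which leaves 2 in place of 3. Over all genes, 0.117% were higher in both treatments at that pseudocount and 1.53% at a pseudocount of 1, in place of 0.751%; quantile normalization gave 0.634%, cyclic loess 0.591%, no filter 0.956% and the median of probe sets 0.751%. MAF alone reached 2-fold in the shIKKE line with quantile normalization or cyclic loess, which makes 1 in place of 0, and it no longer did so in the control line (0.94 and 0.78), which makes 2 in place of 3. Of the listed genes, 1 in place of 2 was higher in both treatments with a pseudocount of 50, quantile normalization or cyclic loess (CCND2; KCNA3 was lost), and with the median of probe sets RASGRP2 stood in place of CCND2. No gene of the 7 passed limma's test of stimulation under any alternative, the variance trend included, with adjusted p from 0.130 to 0.965. Over all 13717 genes 1044 passed with the variance trend and 500 with a pseudocount of 50, against 1 in the fit reported; 1 passed with quantile normalization and 0 with a pseudocount of 1, cyclic loess and the median of probe sets, nor did any of 19775 genes with no filter or of 26218 probe sets taken alone.

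The direction turned with the probe set. With no filter PTGES is read by its second probe set, at log2 -0.46 with solvent and -0.078 with stimulation for the shIKKE over the control line. Single further probe sets turned the line difference of MAF (-0.67 and -0.69 with solvent; -0.008, -1.01 and -0.053 with stimulation), NECTIN1 (-1.32 and -0.72; -0.92), LARP6 (-0.43 and -0.46; -0.24) and MYO5B (-0.21 with stimulation). They also turned the control line's stimulation difference of MAF (-1.64, -0.86, -0.013 and -0.87) and MYO5B (0.61), and the difference of responses of MAF (2.31, 0.78 and 0.64), MYO5B (-0.53 and -0.069) and NECTIN1 (-0.20). The cause was not tested. RAP1GAP2 and KCNG4 have no further probe set. No paired analysis was possible because the labels give no replicate numbers and each group has 1 array, and the limma fit compares treatments within each line through its line term.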
